A study of Mus musculus with 24 samples.

Results

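The 12 cells described here are the 6 erythroid progenitors with the most Car1 transcript and the 6 with the least, out of 24 single cells sequenced. Car1 encodes carbonic anhydrase 1, a red cell enzyme that interconverts carbon dioxide and bicarbonate. The cells were chosen by measured values. The 19 cells with Klf1, an erythroid transcription factor, at 10 CPM or more were kept and ranked by Car1 CPM. CPM is a gene's count divided by the cell's total and multiplied by 1000000. The top 6 are called Car1-high, the bottom 6 Car1-low, and the 7 cells between them middle cells. All were sorted as burst-forming unit-erythroid progenitors (BFU-E) from the liver of C57/Bl6J mouse embryos at day 14.5, with no treatment named, and profiled by Smart-seq2, which amplifies polyadenylated RNA of a single cell without molecular identifiers. Before sorting, antibodies to lineage antigens, Sca-1, CD16/32 and CD41 were used to deplete other cells, and the sort stained CD117, CD71 and CD24.

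BFU-E are the earliest progenitors committed to red cells. They descend from progenitors that can also form megakaryocytes, and they go through a later colony-forming stage before they make haemoglobin. GATA2 is known from the early end of this path, and GATA1 and KLF1 drive the later erythroid genes. Carbonic anhydrases are abundant proteins of the mature red cell.

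No embryo was named for any cell, so the cells count as 1 sample and no comparison below has a test, a p-value or a standard error. The values describe these cells on 1 plate, and how far other embryos would vary was not measured. The cells of each set are therefore given by their lowest, median and highest CPM, and a gene is called separated when all 6 values of one set lie above all 6 of the other.

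Car1 itself, on the minus strand of chromosome 3 from 14766216 to 14808368 (GRCm38), was read at 5252, 2194, 1248, 1184, 831 and 807 CPM in Car1-high cells 12, 18, 3, 17, 8 and 21. In the Car1-low set, cells 13, 7 and 15 had 31.5, 21.8 and 21.4 CPM, and cells 2, 4 and 20 had no count. The middle cells ran from 40.8 to 454 CPM. The levels form a gradient with cell 12 far above the rest. At the high end the limit falls between cell 21 and cell 6 (454 CPM), and at the low end between cell 14 (40.8 CPM) and cell 13. The lowest Klf1 among kept cells was 32.4 CPM in cell 10, and the highest among the 5 cells left out was 8.12 CPM in cell 24. These 5 cells had 0 to 9.25 CPM of Car1, and ranking all 24 cells would leave 3 of the 6 Car1-low cells in the low set.

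**Figure D1:**
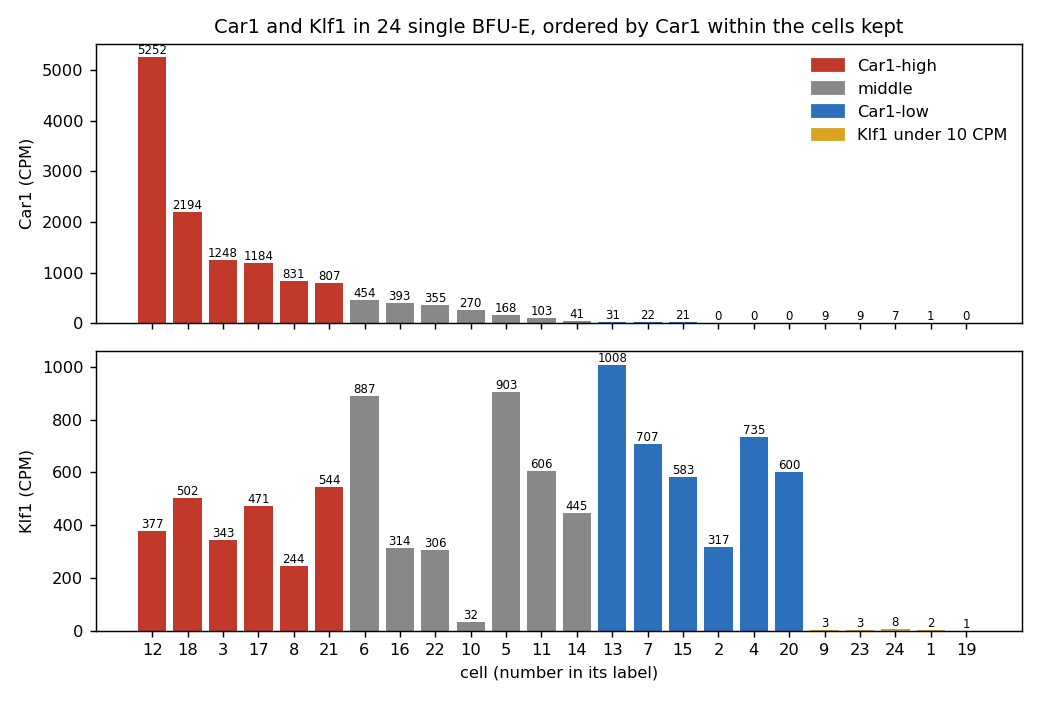
Car1 (top) and Klf1 (bottom) in CPM on the vertical axes for each of the 24 cells, numbered on the horizontal axis and ordered by Car1 within the 19 kept cells. Colours mark the Car1-high, middle and Car1-low cells and the 5 cells with Klf1 under 10 CPM. Car1 reached 5252 CPM in cell 12 and stayed at or under 31.5 CPM in the Car1-low set.

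Total counts were 1135880 to 2155010 in Car1-high cells and 1481317 to 1737021 in Car1-low cells, and genes with 5 or more counts numbered 5013 to 6392 and 5439 to 6767. Mitochondrial genes held 3.58% to 4.50% of counts in Car1-high cells and 2.18% to 3.83% in Car1-low cells. The sets were spread unequally over the plate: Car1-high cells lay 0, 2 and 4 in plate columns 1, 2 and 3, and Car1-low cells 3, 2 and 1. Only plate column 2 held 2 cells of each set. The labels call the wells by row and column and name no batch, and the part of plate position and mitochondrial share in the results was not tested.

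Both sets, cut from cells chosen on Klf1, held Gata1 and Epor transcripts, though Epor not in every cell. Other erythroid markers, given below, were mixed. Gata1, the central erythroid transcription factor, was at 188, 396 and 493 CPM (lowest, median, highest) in Car1-high cells and at 252, 456 and 598 CPM in Car1-low cells. Epor, the erythropoietin receptor, was at 53.5, 150 and 313 CPM against 0, 168 and 316 CPM. The values of both genes overlapped almost completely. Of the listed markers of lymphoid cells, macrophages, and endothelial and stromal cells, none passed the count filter described below. Summed over the list, macrophage markers were at 0 in the median cell of either set and reached 116 CPM in Car1-high and 117 CPM in Car1-low cells. Lymphoid markers stayed at or under 1.82 CPM, and endothelial and stromal markers reached 106 and 97.2 CPM. Hepatocyte markers summed to 4.79 to 33.9 CPM in Car1-high and 9.51 to 54.1 CPM in Car1-low cells, and to 1613 CPM in middle cell 10.

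Across the 7672 genes with 5 or more counts in at least 6 kept cells, Car1 left out, few separated the sets. All 6 Car1-high cells lay above all 6 Car1-low cells for 9 genes (0.117% of those tested), and below them for 12 genes (0.156%), or 0.274% in either direction. How many genes other splits of 12 cells into 6 and 6 would separate was not measured. Separation alone therefore does not tie a gene to Car1. Differences of means were far more common. The mean of log2(CPM + 1) was higher by 1 or more in Car1-high cells for 1247 genes (16.3%) and lower by 1 or more for 1833 genes (23.9%), 40.1% together, and the median difference was -0.14. A cell without a count weighs heavily in a mean of log values, so the pairs are counted too: each of the 6 Car1-high cells can be set against each of the 6 Car1-low cells, in 36 pairs.

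Promoter windows are shown for 5 genes described below, chosen after their values were seen: Gata2 and Rcn2, which were higher in Car1-high cells, and Blvrb, Cpox and Nip7, which were lower. Each is the 250 bases before the gene's 5′-most start in RefSeq (GRCm38.p6), 5′ to 3′ on the gene's strand, which is plus for all 5. Capitals mark matches on either strand to GATAA, the core that GATA factors bind, or to CCNCNCCC, a CACC-type box of the kind KLF1 binds. No match of the one overlapped a match of the other. The windows are chr6:88193641-88193890, chr9:56041595-56041844, chr7:27447728-27447977, chr16:58669958-58670207 and chr8:107056627-107056876, in the order below.
Gata2: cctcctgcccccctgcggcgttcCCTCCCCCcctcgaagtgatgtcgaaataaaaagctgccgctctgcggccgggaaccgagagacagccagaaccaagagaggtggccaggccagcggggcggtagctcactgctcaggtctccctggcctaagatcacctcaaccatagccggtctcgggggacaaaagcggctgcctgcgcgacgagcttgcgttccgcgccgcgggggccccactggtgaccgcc
Rcn2: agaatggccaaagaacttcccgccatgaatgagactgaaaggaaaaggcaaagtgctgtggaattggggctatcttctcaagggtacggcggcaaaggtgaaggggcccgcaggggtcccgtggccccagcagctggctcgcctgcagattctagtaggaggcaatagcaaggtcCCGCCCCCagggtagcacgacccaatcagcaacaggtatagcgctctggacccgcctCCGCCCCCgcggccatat
Blvrb: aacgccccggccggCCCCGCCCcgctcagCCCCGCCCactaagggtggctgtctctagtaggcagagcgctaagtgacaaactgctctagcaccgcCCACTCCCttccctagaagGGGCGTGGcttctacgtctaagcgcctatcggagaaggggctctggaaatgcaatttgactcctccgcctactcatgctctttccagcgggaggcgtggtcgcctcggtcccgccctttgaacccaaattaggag
Cpox: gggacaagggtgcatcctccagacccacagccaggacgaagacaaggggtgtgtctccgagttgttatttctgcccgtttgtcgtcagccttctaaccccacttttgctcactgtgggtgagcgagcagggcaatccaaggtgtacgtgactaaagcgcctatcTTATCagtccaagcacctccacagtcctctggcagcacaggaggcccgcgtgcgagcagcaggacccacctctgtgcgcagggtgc
Nip7: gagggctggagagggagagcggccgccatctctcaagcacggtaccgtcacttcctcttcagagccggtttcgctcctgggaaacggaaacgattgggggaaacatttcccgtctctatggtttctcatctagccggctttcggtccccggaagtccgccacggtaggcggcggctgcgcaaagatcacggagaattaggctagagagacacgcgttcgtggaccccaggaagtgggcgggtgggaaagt
Cpox held 1 GATAA and no CCNCNCCC. Blvrb held 4 matches to CCNCNCCC, Rcn2 held 2 and Gata2 held 1, with no GATAA in any of them. Nip7 held neither. Of 32851 windows of the same length, 22.58% held GATAA and 45.93% held CCNCNCCC, so a match is common. A match describes letters only.

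Genes of the early progenitor list were mostly higher in Car1-high cells, but their median difference was -0.14 in plate column 2 alone. Of 30 listed early progenitor genes, 16 passed the count filter, 10 of them (62.5%, against 16.3% of all genes) were higher by 1 or more and 1 was lower by 1 or more, with a median difference of 1.41 against -0.14 over all genes. Genes that passed the filter only through one set had to differ, so these counts describe the list and support nothing. None of the 16 was separated. Adgrg1, an adhesion receptor of stem and progenitor cells, had 134, 327 and 633 CPM in Car1-high cells and 55.8, 102 and 336 CPM in Car1-low cells. The sets overlapped through the lowest Car1-high cells and Car1-low cells 15 and 20, and 31 of 36 pairs had the Car1-high cell above.

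Gata2, the GATA factor of stem cells, megakaryocytes and mast cells, had 0, 120 and 1487 CPM in Car1-high cells and 0, 7.40 and 94.1 CPM in Car1-low cells. Cells 3, 18 and 12 (1487, 547 and 202 CPM) were above every Car1-low cell, while cells 8, 21 and 17 lay within the Car1-low range. The difference of mean log2(CPM + 1) was 3.46, or 2.59 without cell 3 and 0.70 with plate column as a term. In plate column 2 alone the order turned, with a mean of 19.2 CPM in Car1-high cells 8 and 17 and 47.1 CPM in Car1-low cells 2 and 20.

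Not every gene of the early list was higher. Kit, the stem cell factor receptor that the CD117 antibody reads, had 118, 242 and 342 CPM in Car1-high and 96.8, 311 and 553 CPM in Car1-low cells, and Myb, a transcription factor of proliferating progenitors, had 186, 372 and 555 against 95.7, 438 and 857 CPM. Both overlapped throughout. Nr3c1, the glucocorticoid receptor that sustains BFU-E self-renewal, was the member with the lowest difference, at -2.55. It had 0.599, 55.0 and 84.9 CPM in Car1-high and 43.2, 138 and 197 CPM in Car1-low cells, and 31 of 36 pairs had the Car1-low cell above. Cd34 and Flt3, markers of still earlier progenitors, did not pass the filter, and their highest values in the 12 cells were 1.73 and 3.45 CPM.

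Megakaryocyte genes followed the early list, with which they share Gata2 and Fli1 among others. Of 24 listed, 11 passed the filter, 8 (72.7%, against 16.3% of all genes) were higher by 1 or more and none was lower by as much, with a median difference of 1.18. As for the early list, members that passed the filter only through one set had to differ, so the counts support nothing. Itga2b encodes CD41, an integrin of megakaryocytes and platelets and an antigen of the depletion. It had 52.7, 213 and 542 CPM in Car1-high cells and 0, 38.9 and 155 CPM in Car1-low cells, a 4.29-fold higher mean, with 5 or more counts in 6 and 3 cells. Only cells 17 and 21 of the Car1-high set fell within the Car1-low range, and every Car1-high cell held the transcript. Summed over the cells of a set, it was at 242 CPM (exact Poisson 95% interval 232 to 252) and 60.5 CPM (55.7 to 65.5). These intervals cover counting error only, and PCR copies without molecular identifiers are not independent molecules. F2r, a thrombin receptor of platelets, had 118, 237 and 738 CPM against 71.7, 106 and 235 CPM, with 31 of 36 pairs higher. Nfe2, which megakaryocytes and erythroid cells share, was little different, at 116, 161 and 448 against 23.6, 178 and 432 CPM.

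The megakaryocyte list summed to 447, 1320 and 3172 CPM in Car1-high cells and 247, 614 and 738 CPM in Car1-low cells. Pf4, a defining platelet gene, did not pass the filter. Among Car1-high cells, cell 12 stood highest and cell 17 lowest by the mean over the 11 tested genes. In plate column 2 alone, with 2 cells of each set, the list's median difference was -0.64 and that of the early list -0.14. With plate column as a term beside the set they were 0.70 and 0.59.

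The middle cells, which are in neither set, give values the ranking did not split. Spearman's rho with Car1 over these 7 cells was above 0 for 15 of 16 early progenitor genes and 10 of 11 megakaryocyte genes, compared with 3829 of the 7672 genes tested. It was 0.68 for Gata2, 0.74 for Itga2b, 0.57 for Adgrg1 and 0.64 for F2r. These points share 1 plate and differ in depth, and rho is given as a description. The Car1 order of the middle cells also followed plate column. Cells 14, 11 and 5 of column 2 had the least Car1, then cells 10, 22 and 16 of column 1, then cell 6 of column 3. A relation with Car1 in the middle cells, here and below, therefore cannot be told apart from plate column. Cell 10, which held hepatocyte transcripts, did not set the counts: without it they were 15 of 16 and 10 of 11.

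**Figure D2:**
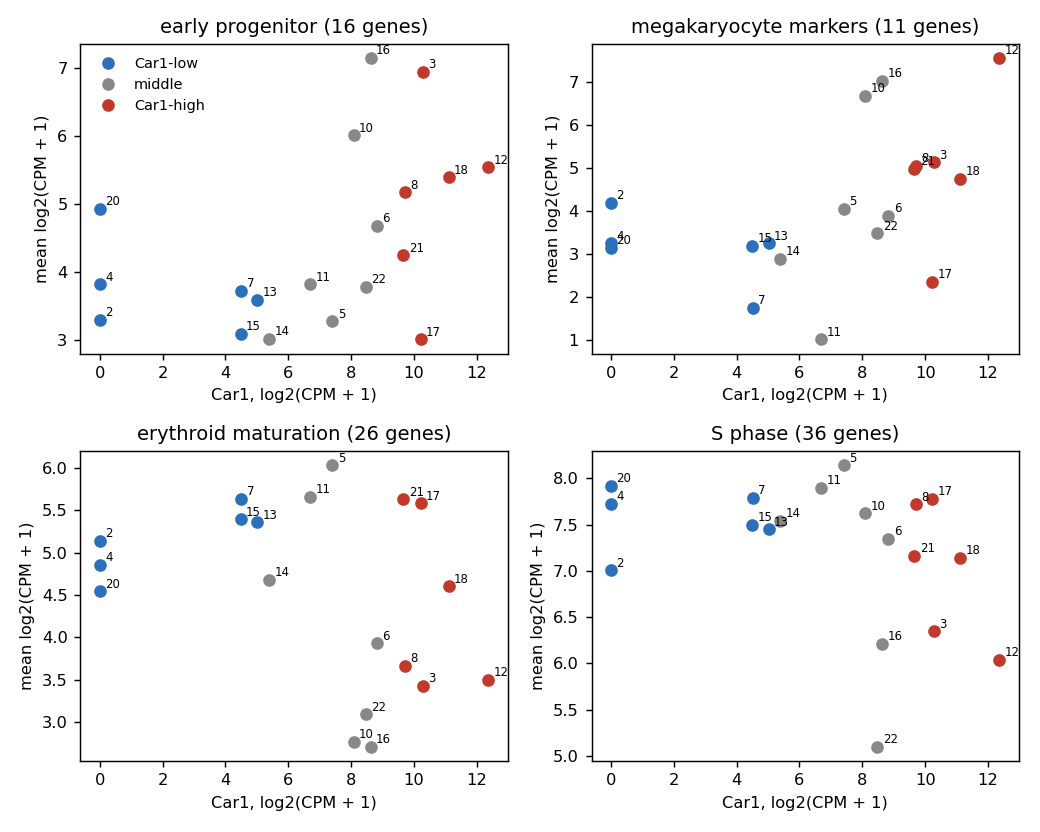
Each point is a cell. The horizontal axis is Car1 as log2(CPM + 1), and the vertical axis is the mean log2(CPM + 1) over the genes of a list that passed the filter, for 4 lists, with cell numbers and the colours of the 3 Car1 ranges. Among middle cells, cells 16 and 10 had the highest early progenitor and megakaryocyte values and the lowest erythroid maturation values, and Car1-high cell 17 lay with the Car1-low cells.

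Some markers of other lineages were higher in the same cells, and their part in the result was not tested. Of 24 listed myeloid genes, 8 passed the filter. By 1 or more, 4 were higher (50%, against 16.3% of all genes) and 1 lower (12.5%, against 23.9%). As for the early list, members here that passed only through one set had to differ, so the counts support nothing. The summed level of the myeloid list was 322 to 2254 CPM in Car1-high and 438 to 1552 CPM in Car1-low cells. Of 11 listed mast cell and basophil markers, 2 passed, Gata2 and Srgn, and both were higher by 1 or more, as were 16.3% of all genes. The summed level of that list, which shares Gata2 with the early genes, was 244, 650 and 2443 CPM (cell 3) in Car1-high and 51.6, 133 and 714 CPM (cell 20) in Car1-low cells. Its members Ms4a2, Fcer1a, Mcpt8, Prss34, Tpsb2 and Cma1 were at 0 in every cell of both sets, but 3 others under the filter were not. Il1rl1 had 5 or more counts in 3 Car1-high cells (up to 115 CPM) and 0 Car1-low cells. Hdc and Cpa3 reached 80.2 and 26.5 CPM in Car1-low cells and at most 0 and 0.736 CPM in Car1-high cells. Laptm5, a lysosomal membrane protein of blood cells, had 71.8, 345 and 523 CPM in Car1-high and 3.45, 143 and 259 CPM in Car1-low cells. Srgn, the granule proteoglycan serglycin, had 215, 373 and 950 against 49.1, 112 and 538 CPM. Both sets overlapped in each gene, and Car1-low cell 20 held the set's top values for Srgn and for Coro1a (408 CPM), an actin-binding protein of blood cells that overlaps Bola2 on the other strand. Cd48, a surface protein of blood cells, had 58.9, 126 and 237 CPM in Car1-high and 0, 4.97 and 144 CPM in Car1-low cells, with 33 of 36 pairs higher.

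**Figure D3:**
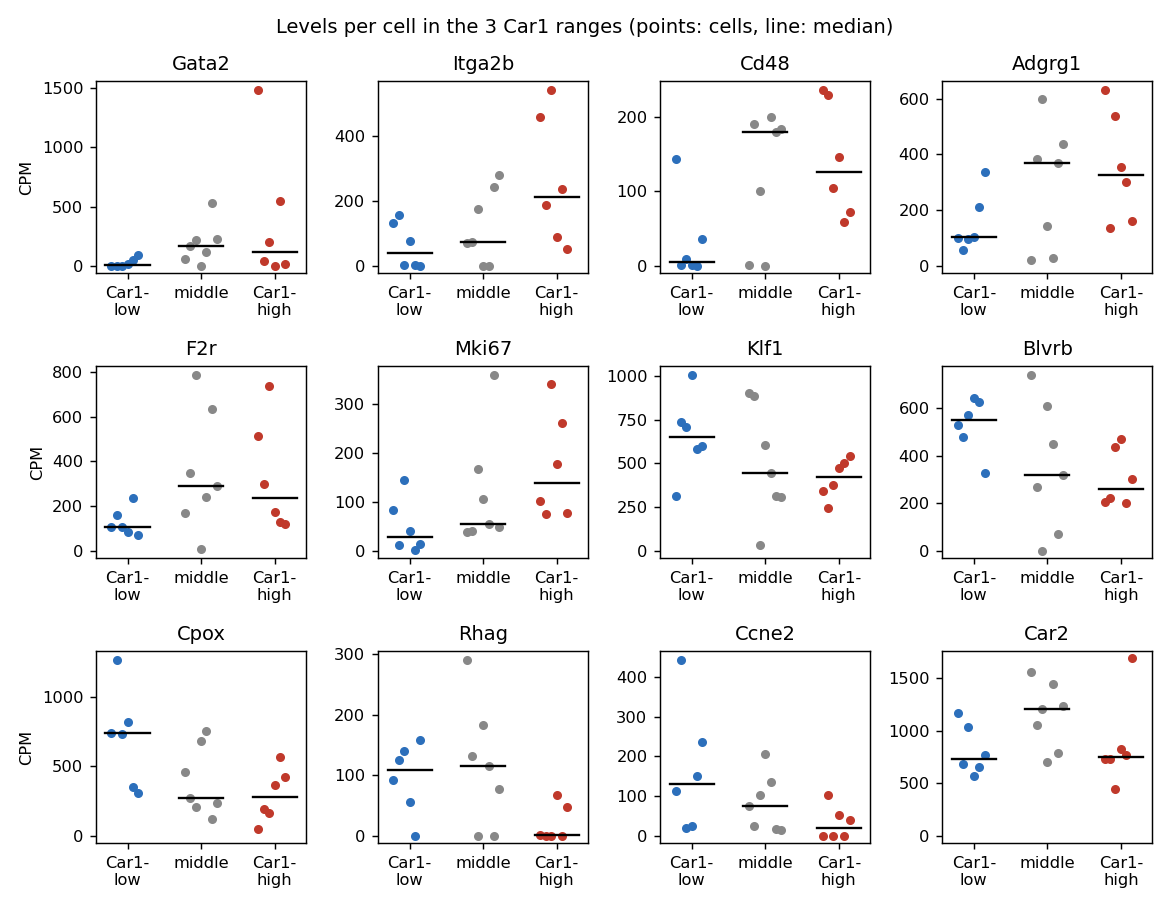
CPM per cell (vertical axis, a linear scale of its own for each gene) in the Car1-low, middle and Car1-high cells for 12 genes. Points are cells and lines are medians. Itga2b, Cd48 and Adgrg1 sat higher in Car1-high cells, Klf1, Blvrb, Cpox and Rhag sat lower, and Car2 had medians of 752 and 731 CPM.

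Genes of the erythroid programme were mixed, and several had lower values in Car1-high cells. Klf1, which the rule used as a lower limit only, had 244, 424 and 544 CPM in Car1-high cells and 317, 654 and 1008 CPM in Car1-low cells. It was lower in the Car1-high cell of 31 of 36 pairs, because Car1-low cell 2 (317 CPM) lay inside the Car1-high range. Of 36 listed erythroid maturation genes (Car1 was not on the list), 26 passed the filter, 8 were lower by 1 or more (30.8%, against 23.9% of all genes) and 5 higher (19.2%, against 16.3%), with a median difference of -0.71. These shares are near those of all genes. The list's summed level was 2919 to 5555 CPM in Car1-high cells and 3786 to 4941 CPM in Car1-low cells.

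Rhag and Rhd, 2 proteins of the Rh complex of the red cell membrane, were chosen after their values were seen. Rhag had 0, 1.11 and 67.8 CPM in Car1-high and 0.595, 109 and 159 CPM in Car1-low cells, and Rhd had 0, 0.672 and 101 against 0.675, 97.9 and 196 CPM. For both genes most Car1-high cells were near 0, and the Car1-low cell was above in 32 and 30 of 36 pairs. Hba-a1, an adult alpha-globin gene with a near-identical copy, was low everywhere at 0 to 3.26 CPM in Car1-high and 2.47 to 30.4 CPM in Car1-low cells. Slc4a1, the anion exchanger of the mature red cell, had no count in any of the 12 cells.

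Other members of the same list did not follow. Mfsd2b, which exports sphingosine 1-phosphate from red cells, had 101, 404 and 1170 CPM in Car1-high and 99.9, 261 and 344 CPM in Car1-low cells, with means of 172 and 222 CPM in plate column 2 alone. Hemgn, a nuclear protein of erythroid cells, was at 0, 51.3 and 227 CPM against 0, 0.930 and 87.8 CPM, but the order turned in plate column 2 alone, with means of 0.326 and 43.9 CPM. Tspan33, a tetraspanin of erythroid cells, was at 0, 31.7 and 88.0 against 0, 6.41 and 53.5 CPM. Hemgn and Tspan33, chosen after their values were seen, went the opposite way in the middle cells, where rho with Car1 was -0.76 and -0.79.

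The neighbours of Car1 on chromosome 3 gave no such order. Car2, which lies on the plus strand from 14886273 to 14900770 and encodes the other main red cell carbonic anhydrase, had 448, 752 and 1695 CPM in Car1-high and 570, 731 and 1171 CPM in Car1-low cells, a difference of 0.02. Car13, of the same cluster, had 5 or more counts in 2 and 1 cells. Car3 had none above 1 CPM in these 12 cells. Of the 16 carbonic anhydrase genes listed, Car1 included, no other passed the filter. Genes that move bicarbonate, protons and water had a median difference of 0.44 over 10 tested of 21. Leaving out 1 cell in turn took it as low as 0.02. By 1 or more, 4 were higher (40%, against 16.3% of all genes) and none was lower (against 23.9%). Members that passed the filter only through one set had to differ, so the counts support nothing. In the middle cells rho with Car1 was above 0 for 5 and below 0 for 5. Their most abundant member, Bsg, a chaperone of monocarboxylate transporters, was at 202, 416 and 473 against 378, 482 and 556 CPM.

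Haem genes differed in a few members. Of 15 haem synthesis genes, 14 passed the filter, with a median difference of -0.22, or 0.15 with plate column as a term. By 1 or more, none was higher (against 16.3% of all genes) and 2 were lower (14.3%, against 23.9%). Cpox, coproporphyrinogen oxidase, had 51.1, 281 and 570 CPM in Car1-high and 312, 737 and 1267 CPM in Car1-low cells. Car1-high cells 18, 21 and 17 overlapped Car1-low cells 15 and 20, and the Car1-low cell was higher in 30 of 36 pairs. Alad, aminolevulinate dehydratase of an earlier step, was at 148, 435 and 646 against 172, 552 and 626 CPM and overlapped throughout.

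Blvrb, biliverdin reductase B of the haem breakdown list, was the listed haem gene nearest to separation. It had 201, 261 and 471 CPM in Car1-high and 328, 552 and 645 CPM in Car1-low cells. Only Car1-low cell 20, at 328 CPM, fell under any Car1-high cell, and the Car1-low mean was 1.73-fold higher. In the middle cells rho with Car1 was -0.61 for Blvrb and -0.75 for Cpox. Iron genes had a median difference of -0.15, near that of all genes, and the ferritin chains Fth1 (median 1113 and 1253 CPM) and Ftl1 (778 and 939 CPM) overlapped.

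Among 28 tested erythroid transcription factors and signalling genes, 5 were higher by 1 or more (17.9%, against 16.3% of all genes) and 9 lower (32.1%, against 23.9%), with a median of -0.43, or 0.34 with plate column as a term. Lmo2, the bridge of the GATA1 complex, had 278, 533 and 825 CPM in Car1-high and 29.9, 280 and 641 CPM in Car1-low cells. Gfi1b, a repressor needed for erythroid and megakaryocyte cells, had 23.5, 304 and 733 against 204, 556 and 890 CPM. Klf3, E2f4 and Cbfa2t3 were chosen after their values were seen. Klf3, a repressor among the targets of KLF1, had 0.464, 1.02 and 57.2 CPM against 41.3, 69.5 and 106 CPM. E2f4, a cell cycle factor needed for red cell maturation, was at 55.5, 112 and 162 against 108, 370 and 424 CPM, and Cbfa2t3, a corepressor of the SCL complex, at 40.9, 90.7 and 132 against 13.97, 26.0 and 66.6 CPM. In each of these 3 genes at most 4 of 36 pairs went against the direction of the medians.

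**Figure D4:**
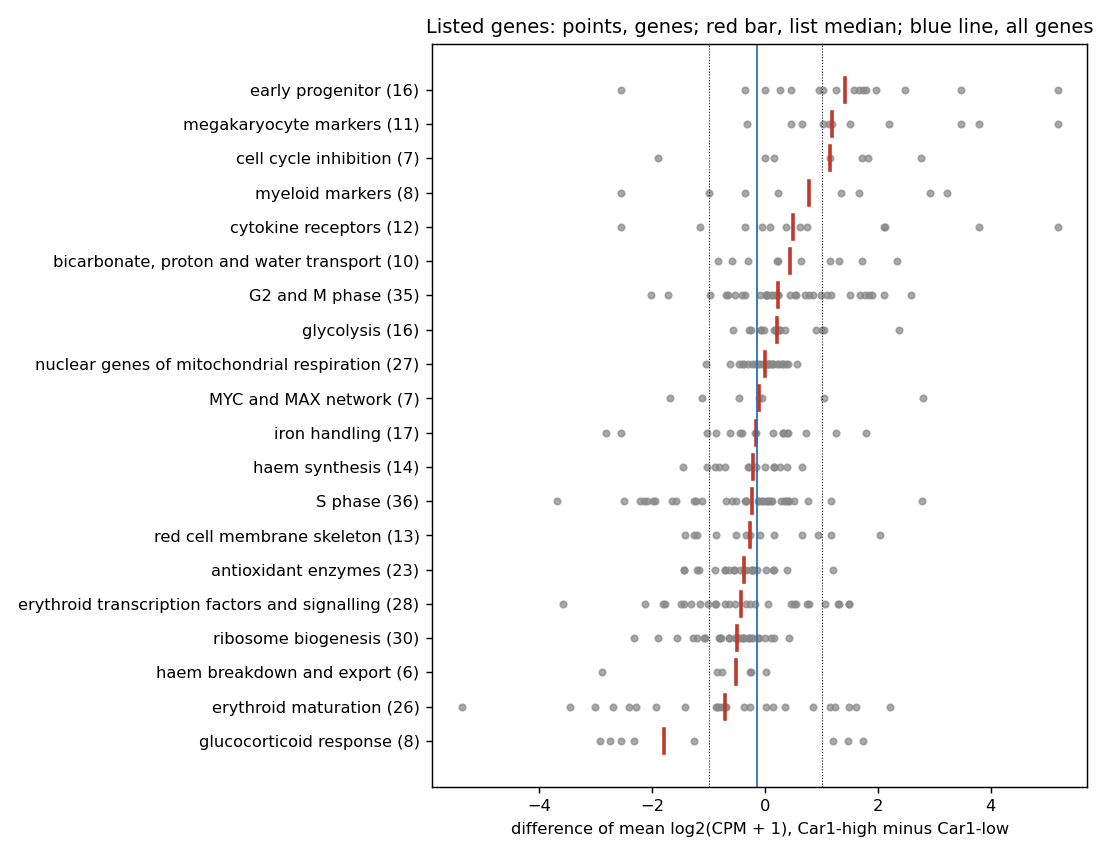
Difference of mean log2(CPM + 1), Car1-high minus Car1-low (horizontal axis), for the tested genes of each list (grey points), with the list's median as a red bar and the median of all 7672 genes, -0.14, as a blue line. Dotted lines mark a difference of 1 in either direction. Early progenitor (1.41) and megakaryocyte (1.18) medians were the highest, and the glucocorticoid response (-1.79) and erythroid maturation (-0.71) medians the lowest of the lists shown.

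The glucocorticoid receptor and several genes it is known to induce were lower in Car1-high cells, but the list was small and mixed. Of 19 listed, 8 passed the filter. By 1 or more, 5 were lower (62.5%, against 23.9% of all genes) and 3 higher (37.5%, against 16.3%). These counts support nothing, because members that passed the filter only through one set had to differ. Mt1, a metallothionein, had 58.1, 402 and 755 CPM in Car1-high and 457, 748 and 1106 CPM in Car1-low cells. Mt2 and Fkbp5, chosen after their values were seen, had medians of 7.61 and 32.6 CPM in Car1-high and 48.6 and 103 CPM in Car1-low cells, with the Car1-low cell above in 33 and 32 of 36 pairs. Txnip, a thioredoxin inhibitor, went the other way, at 49.6, 161 and 470 against 1.15, 75.9 and 232 CPM, but its difference of 1.47 was -0.27 with plate column as a term and -1.17 in plate column 2 alone. Zfp36l2, an RNA-binding protein chosen after its values were seen, had the list's highest difference, 1.74. It was higher in plate column 2 alone too, with means of 30.5 and 6.48 CPM, although Car1-low cell 4 held 94.99 CPM. Without the filter on low counts, which brings in listed genes near 0, the list's median was 0.071.

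The sort antigens and other receptors gave a mixed picture. Tfrc, the transferrin receptor CD71, had 0.736, 81.8 and 158 CPM in Car1-high and 3.04, 67.2 and 124 CPM in Car1-low cells. Cd24a, a surface protein that is higher in later erythroid cells, had 0.620, 44.1 and 314 against 0, 107 and 313 CPM, and both genes overlapped throughout. Of 29 listed cytokine receptor genes, 12 were tested, with a median of 0.49. By 1 or more, 4 were higher (33.3%, against 16.3% of all genes) and 2 lower (16.7%, against 23.9%). Members that passed the filter only through one set had to differ, so these counts support nothing. Il2rg, the common gamma chain, chosen after its values were seen, had 1.47, 45.3 and 276 CPM in Car1-high cells, and in the Car1-low set 129 CPM in cell 13 and at most 0.622 CPM in the other cells.

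All 36 S phase genes passed the filter, 12 were lower by 1 or more (33.3%, against 23.9% of all genes) and 2 higher (5.56%, against 16.3%). Their median of -0.23 (0.32 in plate column 2 alone) lay near the -0.14 of all genes, and their summed level had a median of 11488 CPM in Car1-high and 11273 CPM in Car1-low cells. In the middle cells, rho with Car1 was below 0 for 30 of 36, compared with 3622 of the 7672 genes tested. Car1 order follows plate column in those cells, as given above. Ccne1 and Ccne2, the E cyclins of S phase entry, and Rrm2, a subunit of ribonucleotide reductase, were chosen after their values were seen. Ccne1 had 0, 108 and 196 CPM in Car1-high and 32.2, 333 and 636 CPM in Car1-low cells, but in plate column 2 alone the order turned, with means of 170 and 119 CPM. Ccne2 had 0, 19.7 and 103 against 20.5, 131 and 442 CPM, and Rrm2 had 3.52, 288 and 717 against 423, 646 and 1486 CPM.

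Car1-high cells 12, 18 and 3 had no Ccne2 count, and the Car1-low cell was above in 30 to 32 of 36 pairs for the 3 genes. The replication helicase genes differed little: Mcm6 had 685, 1050 and 1222 CPM in Car1-high and 936, 1313 and 1433 CPM in Car1-low cells. Mcm7, which overlaps Cops6 on the other strand, had 314, 935 and 1048 against 448, 617 and 729 CPM. The other subunit of the same reductase, Rrm1, went the opposite way to Rrm2, with medians of 983 and 528 CPM.

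The 35 tested G2 and M phase genes had a median of 0.23. By 1 or more, 9 were higher (25.7%, against 16.3% of all genes) and 2 lower (5.71%, against 23.9%). Ccnb2, a mitotic cyclin, had 237, 478 and 723 CPM in Car1-high and 61.0, 260 and 455 CPM in Car1-low cells, and its difference of 1.10 was -0.04 with plate column as a term and -0.25 in plate column 2 alone. Mki67, the proliferation antigen Ki-67, was chosen after its values were seen and had 74.4, 139 and 341 CPM against 1.19, 27.3 and 145 CPM. Cdc20, an abundant gene of the same list, went the other way, with a difference of -1.73, or 0.25 in plate column 2 alone. It overlaps Elovl1 on the other strand. Hmgb2, also abundant, differed by 0.20. The list's summed level was spread widely in Car1-high cells, from 3003 to 12812 CPM, against 4651 to 6525 CPM in Car1-low cells, and its median was -0.02 without cell 12. Of 16 listed genes that restrain the cycle, 7 passed the filter, 4 were higher by 1 or more (57.1%, against 16.3% of all genes) and 1 lower (14.3%, against 23.9%). Here too, members that passed only through one set had to differ, so the counts support nothing. Cdkn2d led them (0, 38.5 and 63.3 against 0, 0 and 44.3 CPM). The list's median was 1.14, or 0.30 without cell 12.

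Most ribosome biogenesis genes had lower means in Car1-high cells. All 30 listed passed the filter, and 26 had a difference below 0, as did 4302 of all 7672 genes. The differences ran from -2.32 to 0.42 with a median of -0.49. By 1 or more, 7 were lower (23.3%, near the 23.9% of all genes) and none was higher. Npm1, nucleophosmin, had 2726, 3590 and 4561 CPM in Car1-high and 3619, 4544 and 5249 CPM in Car1-low cells, and Ncl, nucleolin, had 1277, 1755 and 2538 against 1848, 2372 and 3117 CPM. The sets overlapped in each, with the Car1-low cell above in 30 and 29 of 36 pairs. Nip7, a factor for the large subunit chosen after its values were seen, came closest to separation, at 113, 136 and 211 against 157, 337 and 421 CPM, with 35 of 36 pairs. The values of Myc, which drives such genes, overlapped, at 571, 891 and 1755 against 745, 960 and 1342 CPM.

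Energy metabolism genes differed little in their medians. Nuclear genes of mitochondrial respiration had a median difference of 0.01 over 27 genes, and Atp5b, a subunit of ATP synthase, had medians of 3528 and 2958 CPM with pairs split 18 and 18. The mitochondrial genome's own transcripts, given above, were a larger share in Car1-high cells. Glycolysis genes had a median of 0.21 over 16 genes. Antioxidant enzymes had -0.37 over 23, with 18 below 0, as were 4302 of all 7672 genes. Prdx2, the main red cell peroxiredoxin, had 632, 829 and 1354 CPM against 651, 1239 and 1543 CPM, and overlaps Rnaseh2a on the other strand.

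The 9 genes that separated the sets upward came from none of the lists. Rcn2 (chromosome 9, 56041845 to 56061882), a calcium-binding protein of the endoplasmic reticulum, had the highest rho with Car1 of all genes over the 19 cells, 0.82. It had 92.8, 163 and 294 CPM in Car1-high cells, and in the Car1-low set 84.4 CPM in cell 2 and at most 0.607 CPM in the other cells. In the middle cells it was at 0, 51.0 and 89.3 CPM with a rho of 0.64. That range covers the Car1-low range, and these 7 cells are among the 19 that ranked the gene.

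Acad8 (chromosome 9, 26974135 to 26999566), isobutyryl-CoA dehydrogenase of valine breakdown, had 50.2, 71.5 and 134 CPM in Car1-high cells and no count in any Car1-low cell. Against a floor of 3 counts summed over the Car1-low cells, it was at least 265-fold higher. Suclg1 (chromosome 6, 73248382 to 73276911), a subunit of succinyl-CoA ligase in the citric acid cycle, was the gene of this direction with 5 or more counts in all 12 cells, at 351, 535 and 623 against 205, 283 and 334 CPM. H1f0, the linker histone of differentiating cells, had 102, 199 and 384 CPM against 0, 19.4 and 87.7 CPM.

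The others were Bud13, a splicing factor (medians 100.04 and 0 CPM), Nnt, the mitochondrial transhydrogenase (109 and 39.6 CPM), Actr8 of the INO80 chromatin complex (135 and 45.7 CPM), Ppp2r5d, a subunit of phosphatase 2A (152 and 80.4 CPM), and Ankmy2 (109 and 0.887 CPM). Ankmy2 lies on the strand opposite Bzw2, which had 10831 counts in the kept cells against 1571, and without strand their reads cannot be told apart where they overlap. Ppp2r5d likewise overlaps Mea1. In the middle cells rho with Car1 was above 0 for 4 of the 9, compared with 3829 of the 7672 genes tested. The median rho of the 9 was -0.018, so they showed no common relation with Car1 there. The middle cells' mean lay between the means of the sets for 6 of the 9.

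Among the 12 genes that separated the sets downward, Uvrag, a factor of autophagy and endosome traffic on chromosome 7 (98885021 to 99141141), had at most 0.652 CPM in any Car1-high cell and 33.9, 77.4 and 99.3 CPM in Car1-low cells. Sgo1, shugoshin of the centromere, had at most 9.13 CPM against 18.7, 80.9 and 123 CPM, and Cenpw, of the centromere too, had 19.95, 72.0 and 101 against 103, 198 and 265 CPM. Cenpw had 5 or more counts in all 12 cells, so its separation does not turn on cells at 0. Aldh3a2, a fatty aldehyde dehydrogenase, had at most 4.42 CPM against 6.22, 47.0 and 102 CPM, and in the middle cells its rho with Car1 was -0.91.

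Utp6 of the small ribosomal subunit processome (medians 0.326 and 63.4 CPM), Dnajb11, a chaperone of the endoplasmic reticulum (0.736 and 158 CPM), Nbn of DNA break repair (0.750 and 112 CPM), Ipp (0 and 36.8 CPM), Pcif1, an RNA cap methyltransferase (21.7 and 106 CPM), and Ppa1, the pyrophosphatase (279 and 408 CPM), were also separated. Pcif1 overlaps Zfp335 on the other strand. Ccl25 and Gpc4, under 20 CPM on average and so outside the rule for naming genes, had no count in Car1-high cells. Ccl25 was at least 86.5-fold and Gpc4 at least 77.5-fold higher in Car1-low cells against the same floor, and Ccl25 overlaps Elavl1. In the middle cells rho was below 0 for 6 of the 12, compared with 3622 of the 7672 genes tested, and its median was -0.024. The middle cells' mean lay between the means of the sets for all 12.

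Ranked by rho over the 19 kept cells, genes that were not separated also reached the ends. Rpsa, a protein of the small ribosomal subunit with many processed copies in the genome, had 949.5, 1284 and 1478 CPM in Car1-high and 487, 926 and 1096 CPM in Car1-low cells, with a rho of 0.78. Hist1h2bk, a histone H2B gene, had a rho of 0.74. At the low end stood Ppp1r8, a nuclear inhibitor of phosphatase 1 (-0.82), Vps50 of endosome recycling (-0.78), Slc25a15, the mitochondrial ornithine carrier (-0.75), and Afg3l2, a mitochondrial protease (-0.74). Vps50 had at most 0.620 CPM in Car1-high cells, and its rho was -0.96 in the middle cells.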

How the data were processed

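Raw counts per gene for 24 cells were used as the authors deposited them. Per the submitters' processing notes, reads were handled with STAR 2.4 and featureCounts on GRCm38. The sources used here give neither annotation release nor counting options, and the kit does not keep strand. Of 49585 gene rows, 49326 matched a symbol in GENCODE M21, which gave coordinates, and the 259 others keep their identifiers. Counts were divided by the cell's total and multiplied by 1000000 (CPM). Differences are of mean log2(CPM + 1). No test was run. Python 3.11.15, pandas 2.3.3 and scipy 1.17.1 were used, with edgeR 4.0.16 and DESeq2 1.42.0 for scaling factors in alternatives only. The counting script was tested on simulated data.

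The cells and the 30 gene lists were chosen with earlier results of these data known. Of 543 listed genes, 540 matched and 342 passed the filter. Genes named are 12 given ones, the 3 most abundant tested members of each list, separated genes with a mean of 20 CPM or more, the 5 genes at each end of rho, passing over predicted genes and pseudogenes, and those marked as chosen after their values were seen. Genes named for not passing the filter, Cst7 and Zfp36l2 were chosen so too. Some genes of the lists are not reported here by name.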

Additional observations from a re-analysis of the deposited data

Results flagged for a closer look

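In the sets of 6 cells, a single cell was flagged when its gap to the nearest other cell took up most of the set's range. For values with a normal spread, chance flags about 1 in 20 groups. The rate for CPM with many zeros was not measured. Every value below is CPM of 1 cell that stood apart from the other 5.

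Cell 12 gave the top Car1 level (5252 CPM), and it also stood apart among Car1-high cells in Slc48a1, a haem transporter (694), Meis1, a stem cell and megakaryocyte factor (856), Mcm7 (314, the lowest), Alb (7.36) and Aldh3a2 (4.42). Cell 3 stood apart in Gata2 (1487), Cst7, a cystatin of blood cells (652), Il2rg (276), Cd24a (314) and Bsg (202, the lowest). Cell 17 stood apart in Prdx6, a peroxiredoxin (5076), Slc25a15 (113), Sgo1 (9.13) and Uvrag (0.652). Cell 21 stood apart in Car2 (1695), Fth1 (2360) and Ipp (8.98). Cell 8 stood apart in Ptprc, the blood cell antigen CD45 (169), Afp (21.1) and Vps50 (0.620), and cell 18 in Nip7 (211) and Trf (21.4). The Uvrag value of cell 17 and the Vps50 value of cell 8 lie under 3 counts (1.96 and 1.86 CPM in these cells). They were flagged only because the other 5 cells were at 0.

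Among Car1-low cells, cell 20 stood apart in Coro1a (408), Cst7 (103), Meis1 (50.4), Ptprc (58.3), Cdkn2d (44.3) and Gpx1, glutathione peroxidase 1 (4448). Cell 4 stood apart in Ftl1 (1524), Tpm3, a tropomyosin (629), Ppa1 (799), Zfp36l2, an RNA-binding protein of BFU-E (94.99), and Car13 (84.6). Cell 13 stood apart in Il2rg (129), Cbfa2t3 (66.6) and Hist1h2bk (8.02). Cell 2 stood apart in Cd48 (144) and Rcn2 (84.4), cell 7 in Bud13 (19.3), Afp (28.6) and Trf (9.95), and cell 15 in Prdx6 (3714) and Tspan33 (53.5).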

How the results depend on the processing

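Scaling by TMM, by median-of-ratios factors or without mitochondrial and ribosomal RNA counts left every count of genes and list median near its value. The counts of separated genes turn on the number of cells. With 5 cells a set they were 30 higher and 46 lower, and with 9 cells 0 and 0. Leaving out 1 cell in turn gave 10 to 20 higher and 14 to 35 lower, the ends being without cells 3, 8 or 17 and without cells 7 and 20. A rule of 33 of 36 pairs, chosen after seeing the data, gave 51 and 53. Asking for 5 counts in 12 kept cells gave 6 separated lower, 648 genes past a difference of 1 upward and 1091 downward, and a pseudocount of 10 CPM gave 548 and 758.

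Ranking all 24 cells, which puts cells with Klf1 under 10 CPM in the low set, gave 14 separated higher and medians of 0.098 for all genes, 1.29 for erythroid maturation, 0.66 for erythroid factors, 0.16 for early progenitor, 1.22 for haem synthesis, 0.43 for iron, 0.24 for respiration, 0.49 for antioxidant enzymes, 0.23 for the glucocorticoid response and -2.11 for myeloid markers. Plate column as a term gave 0.34 for erythroid factors, 0.37 for the membrane skeleton, 1.33 for cytokine receptors, -0.90 for the MYC network and 0.24 for cell cycle inhibition. Plate column 2 alone, chosen after seeing the data, gave 0.15 for erythroid factors, -0.14 for early progenitor, 0.56 for haem synthesis, 0.27 for cell cycle inhibition and -0.64 for megakaryocyte markers. Without the filter on low counts, cell cycle inhibition was at 0.24 and the glucocorticoid response at 0.071. Leaving out 1 cell in turn put cell cycle inhibition between 0.30, without cell 12, and 1.51. The cause of these shifts was not tested. No paired analysis was possible because the cells carry no number that ties a Car1-high cell to a Car1-low cell.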
